A study of Mus musculus with 912 samples.

Results

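The nuclei described here are FOS+ granule cell nuclei of the mouse dentate gyrus (DG) taken 1 h after a mouse met an environment, either as the only unfamiliar environment of the experiment or as a second, different one. The different-context group (A>C FOS+) held every DG nucleus sorted as ARC+FOS+ from mice exposed to environment A and then to environment C, and the first-exposure group (1h FOS+) held every FOS+ nucleus that the authors predicted to be DG from a mouse exposed once. Of 75 such nuclei, 74 had at least 4000 genes with a log2(TPM+1) above 1 and were used, out of 912 nuclei in the whole data set. They were 24 nuclei of mouse 13 and 24 of mouse 14 for A>C FOS+ and 26 of the 27 nuclei of mouse 3 for 1h FOS+, so the comparison is between 2 mice and 1 mouse.

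All mice were wild-type C57BL6 females. Mouse 3 was 8.7 weeks old, and so were both A>C mice per the labels, except that 1 nucleus of mouse 14 carries an age of 9 weeks. Each exposure lasted 15 min, the A>C mice rested 4 h in the home cage between environments, and every mouse of both groups was killed 1 h after its last exposure. The 1h FOS+ nuclei were stained for NEUN, PROX1, CTIP2 and FOS, whereas the A>C FOS+ nuclei were stained for ARC in place of NEUN and were gated as positive for ARC as well as FOS. Reference groups were FOS− DG nuclei of home-cage mice (HC FOS−, 2 mice), FOS− DG nuclei of mouse 3 itself (1h FOS−), ARC+FOS− DG nuclei of 2 other A>C mice (A>C FOS−, mice 11 and 12) and ARC+FOS+ DG nuclei of 6 mice that met environment A on both occasions (A>A FOS+). ARC+FOS− DG nuclei of 2 mice killed 4 h after a single exposure serve for the late genes. The fit described below also held ARC+FOS− DG nuclei of 4 mice killed 5 h after a single exposure. It held ARC+FOS− DG nuclei of A>A mice as well, as 8 sums by mouse and date. The labels give 8.7 or 8.85 weeks for the 5 h mice and 7.75 to 8.875 weeks for these A>A nuclei. The labels give ages of 7.75 and 8.57 weeks for the HC FOS− mice, 8.7 for the A>C FOS− mice, 8.85 or 9 for the A>A FOS+ mice and 7.75 to 9 for the 4 h mice. The 2 exposure groups were collected on different dates, in different sets of libraries and with different staining panels, so exposure history, date, set and sort cannot be told apart in any difference given below.

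Granule cells of the DG fire sparsely, and an unfamiliar environment makes a small share of them active. Activity raises calcium and cAMP, kinases phosphorylate CREB and SRF cofactors that already sit on promoters, and immediate early genes (IEGs) such as Fos, Egr1 and the Nr4a nuclear receptors are transcribed within minutes without new protein. Their products, together with CREB, then act on effector genes whose products change synapses, such as Arc, Homer1, Bdnf and Inhba, and on later genes that are transcribed hours after the stimulus.

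Several of the early genes carry the CREB half-site TGACG upstream of their start. The 4 promoter windows below are from genes whose mean level was lower in both A>C FOS+ mice than in the 1h FOS+ mouse, and they are shown to place the half-sites. Sequences are from RefSeq on GRCm38.p6, written 5′ to 3′ on the strand of the gene, with TGACG and its reverse complement CGTCA in capitals. They span chr12:85473751-85473838 for Fos (plus strand), chr2:57124100-57124213 for Nr4a2 (minus strand), chr4:48045064-48045172 for Nr4a3 (plus strand) and chr13:93303691-93303756 for Homer1 (plus strand).
Fos: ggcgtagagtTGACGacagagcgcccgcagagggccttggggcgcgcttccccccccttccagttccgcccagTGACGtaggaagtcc
Nr4a2: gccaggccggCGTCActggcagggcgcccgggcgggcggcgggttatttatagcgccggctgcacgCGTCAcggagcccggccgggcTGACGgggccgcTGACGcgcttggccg
Nr4a3: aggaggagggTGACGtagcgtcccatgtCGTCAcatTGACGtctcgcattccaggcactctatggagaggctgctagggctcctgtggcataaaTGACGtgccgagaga
Homer1: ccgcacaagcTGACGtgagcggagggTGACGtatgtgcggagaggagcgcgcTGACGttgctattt
The windows hold 2 half-sites for Fos, 4 for Nr4a2, 4 for Nr4a3 and 3 for Homer1. Searched on both strands over the 250 bases upstream of a gene, TGACG was present in 19.8% of 27025 promoters, and the full palindrome TGACGTCA, which contains the half-site in both orientations, in 1.77%. Of the other starts searched, the second start of Homer1 and those of Fosl2, Inhba, Gadd45b, Acvr1c, Rgs7 and Sorcs3 held no match to the motifs searched. A match is a description of the letters and not a measured binding site.

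Mouse 3 gave the deeper nuclei. The median total count per nucleus was 1462217 in the 1h FOS+ mouse (506492 to 1970200), 716336.5 in A>C mouse 13 (536669 to 2102454) and 772966.5 in A>C mouse 14 (204531 to 1330980). The median number of genes above a log2(TPM+1) of 1 was nevertheless alike, at 5195, 5181 and 4991.5 in the same order, and with each nucleus thinned to 100000 counts the median number of genes was 3853, 3988.5 and 3791. Of 12 DG markers, 10 reached a mean level of 1 in either group. The mean level over the 12 was 4.61 in the 1h FOS+ mouse and 4.31 to 4.74 in the A>C mice. It was higher in FOS− nuclei, at 5.90 in those of mouse 3 and 5.80 to 5.94 in the HC FOS− mice. Prox1 had a mean log2(TPM+1) of 6.50 in the 1h FOS+ mouse and 6.72 and 6.00 in the A>C mice. PROX1 protein was part of the sort, so that level is no independent evidence of identity. Rfx3 had 8.29, 6.74 and 7.46 in the same order. The mean level over the interneuron markers was 1.15 in the 1h FOS+ mouse and 1.10 to 1.16 in the A>C mice. The mean level over 10 pyramidal cell markers was 0.46 in the 1h FOS+ mouse and 0.38 and 0.34 in the A>C mice. Over 7 microglial markers it was 0.22 in the 1h FOS+ mouse and 0.19 to 0.20 in the A>C mice. C1qa and C1qb were at or near 0 in every mouse, but 1 of the 7 reached a mean level of 1 and was higher in both A>C mice. Over 8 oligodendrocyte markers the mean level was 1.16 in the 1h FOS+ mouse and 0.69 to 0.99 in the A>C mice. Astrocyte markers made up 0.007% of the summed counts of the 1h FOS+ mouse and 0.017% to 0.032% of those of the A>C mice.

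The first question was whether an active granule cell expresses different genes after a second, different environment than after a first one. Counts were summed over the nuclei of each mouse, fitted with all DG groups by edgeR's quasi-likelihood test, and adjusted by Benjamini-Hochberg over 24291 genes at a threshold of 0.05. The test called 1 gene, Acvr1c (0.00412% of the genes), which was higher in A>C FOS+. At an unadjusted p under 0.05 there were 171 genes higher (0.704%) and 262 lower (1.08%), together 1.78% of all genes. With 1 mouse on one side, an exact permutation over mice cannot give a p below 0.333, and the fit instead assumes that mouse 3 varies like the mice of the other DG groups.

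The precision of the comparison was low for most genes. Among the 8431 genes with a mean log2(TPM+1) of at least 1 in either group, the median standard error of the log2 fold change was 1.54, and 1512 genes had one below 1. The 3 mice were also about as far apart within the A>C group as between groups. The median absolute difference in mean log2(TPM+1) over these genes was 0.45 between the 2 A>C mice, 0.50 between A>C mouse 13 and the 1h FOS+ mouse, and 0.49 between A>C mouse 14 and the 1h FOS+ mouse.

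**Figure D1:**
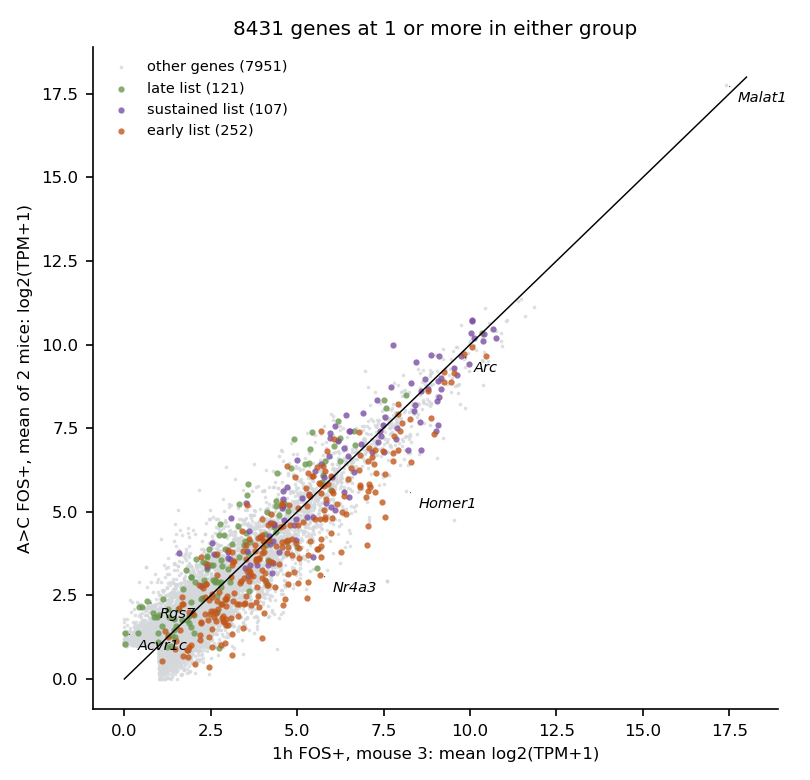
Mean log2(TPM+1) per gene of the 8431 genes at 1 or more in either group, with the 1h FOS+ mouse on the horizontal axis and the mean of the 2 A>C FOS+ mice on the vertical axis, and the genes of the early, sustained and late lists coloured. Most points lie along the line of equality, Acvr1c is the only gene past the threshold, early genes sit mostly below the line and late genes mostly above it.

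Acvr1c, which encodes the activin type I receptor ALK7, lies on chromosome 2 (58267453 to 58357895, minus strand, GRCm38). Its summed counts were 1217 in A>C mouse 13, 2147 in A>C mouse 14 and 4 in the 1h FOS+ mouse, or 63.4, 114 and 0.117 as CPM, the count scaled to a common library total. It exceeded a log2(TPM+1) of 1 in 9 of 24 nuclei of mouse 13 (37.5%, exact 95% interval 18.8% to 59.4%), in 5 of 24 of mouse 14 (20.8%, 7.13% to 42.2%) and in 0 of 26 of mouse 3 (exact 95% interval up to 13.2%). The transcript was therefore present in a minority of A>C FOS+ nuclei and at the level of single reads in the first-exposure nuclei. The log2 fold change was 9.52 ± 1.43 (SE), with an adjusted p of 0.027 by edgeR's quasi-likelihood test.

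Across the other DG groups, the 1h FOS+ nuclei were the low ones. Mean log2(TPM+1) of Acvr1c was 1.42 and 1.34 in the A>C FOS+ mice, 0.03 in the 1h FOS+ mouse, 1.96 in the FOS− nuclei of that same mouse, 2.60 and 2.64 in the HC FOS− mice, 1.69 to 3.29 in the 6 A>A FOS+ mice, and 4.58 and 6.33 in the A>C FOS− mice. For HC FOS− and A>C FOS− the lower value is given first, whatever the mouse number. Against HC FOS−, the A>C FOS+ nuclei had a log2 fold change of 0.28 ± 0.70 (SE, adjusted p = 1 by edgeR's quasi-likelihood test) and the 1h FOS+ nuclei one of −9.24 ± 1.42 (adjusted p = 0.004 by the same test). The call against 1h FOS+ was kept without A>C mouse 13 and lost without A>C mouse 14. Over 13 alternative settings the log2 fold change stayed above 0, from 0.79 to 10.66, and 6 of the 13 passed their threshold. The transcripts of Gm13544 and Gm13545 overlap the gene on the other strand, and the libraries do not keep the strand.

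Acvr1c belongs to a list of late genes that the study had chosen in DG nuclei of this data set, so its membership is not independent of its level here. The 9 further genes with the smallest p in the higher direction were not past the threshold, and each was found in a part of the A>C FOS+ nuclei. Summed counts here and below are not scaled to library size. The libraries held 19135077 counts for A>C mouse 13, 18663281 for A>C mouse 14 and 35182353 for the 1h FOS+ mouse. Such counts therefore overstate a lower level in A>C FOS+ and understate a higher one. Rgs7, a regulator of G protein signalling, had 1126 and 1443 counts in the A>C mice and 136 in the 1h FOS+ mouse, and exceeded a log2(TPM+1) of 1 in 11 of 24, 8 of 24 and 4 of 26 nuclei (log2 fold change 4.09 ± 0.95, SE, adjusted p = 1 by edgeR's quasi-likelihood test). Galnt14, a glycosyltransferase, had 1470, 1522 and 153 counts, and St3gal5, a sialyltransferase of ganglioside synthesis, had 2562, 3131 and 240. Srrt had 1691, 1382 and 124 counts, Fbxw5 2627, 2360 and 12, and Fuom 414, 479 and 4. Counts of Arhgap44 were 258, 1481 and 3, of Snx27 1751, 262 and 12, and of Dgat2l6 795, 6095 and 1, so that for these 3 genes the 2 A>C mice themselves differed several-fold.

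In the lower direction no gene passed the threshold. Of the 10 genes named in that direction, the smallest p among those with counts in all 3 mice was that of Sdha, the flavoprotein subunit of succinate dehydrogenase, with 809 and 688 counts in the A>C mice and 10452 in the 1h FOS+ mouse. In CPM these were 42.1, 36.5 and 305, and the gene exceeded a log2(TPM+1) of 1 in 11 of 24, 9 of 24 and 17 of 26 nuclei. Its log2 fold change was −2.96 ± 0.85 (SE, adjusted p = 1 by edgeR's quasi-likelihood test). The respiratory chain as a list was near the background of all genes. Of its 96 nuclear-encoded members tested, both A>C mice lay below the 1h FOS+ mouse in CPM for 40 and above it for 22, and the median log2 fold change was −0.15. Over all genes tested the shares were 30.6% below and 22.3% above, with a median of 0.00.

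Other genes of the lower direction were detected in the 1h FOS+ mouse alone. Ncaph2, a condensin II subunit, had no count in either A>C mouse and 2309 in the 1h FOS+ mouse, where 11 of 26 nuclei exceeded a log2(TPM+1) of 1. Its CPM was at least 427-fold higher in the 1h FOS+ mouse than a floor of 3 counts per A>C library, and it overlaps Sco2 and Tymp on the other strand. The non-coding 1700056N10Rik had 0, 0 and 1735 counts, from 3 nuclei above the level of 1. Trim46, Slc25a39, Asap1 and Gatad1 had 0 to 32 counts in the A>C mice and 753 to 1839 in the 1h FOS+ mouse, whereas Tsnax had 628, 648 and 6082, Hoga1 15, 21 and 605 and Gm20644 49, 60 and 716. The A>C nuclei held fewer counts each than those of the 1h FOS+ mouse, and the part of depth in these low counts was not tested.

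Of 30 IEG transcription factors, 21 had a lower and 8 a higher mean level in A>C FOS+, and none passed the test. Among all 22890 tested genes with a log2 value, 9702 had a lower and 9664 a higher mean level. In this paragraph and the next, levels are means of log2(TPM+1) over nuclei, in the order A>C mouse 13, A>C mouse 14, 1h FOS+ mouse. Fos, which encodes the protein the nuclei were sorted for, was at 2.94, 2.56 and 3.84, and exceeded 1 in 9 of 24, 9 of 24 and 16 of 26 nuclei and 3 in 7 of 24, 7 of 24 and 10 of 26. The SD over nuclei was 4.34, 3.91 and 4.42, so the groups of nuclei overlapped widely, and in summed CPM mouse 13 (565) even lay above the 1h FOS+ mouse (489) while mouse 14 (160) lay below it. Its log2 fold change was −0.43 ± 3.17 (SE). Fosb was at 2.83, 1.57 and 3.66, and Egr1, a zinc finger IEG, at 2.86, 1.45 and 3.88.

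The Nr4a receptors and Homer1 showed the same order of mice. Nr4a2 was at 6.44, 3.23 and 7.53 and Nr4a3 at 3.25, 2.96 and 5.67, the latter above 1 in 13 of 24, 11 of 24 and 21 of 26 nuclei (log2 fold change −2.13 ± 2.09, SE). Homer1, whose short activity-induced form loosens the postsynaptic scaffold, was at 6.10, 5.12 and 8.16 and was above 1 in all 26 nuclei of the 1h FOS+ mouse, in 22 of 24 of mouse 13 and in 18 of 24 of mouse 14 (−1.69 ± 1.41, SE). Junb was at 5.97, 5.25 and 6.59 in mean level, but its log2 fold change on summed counts was 0.17 ± 2.33 (SE), so the direction for Junb depends on the measure. Adjusted p was 1 for each of these genes by edgeR's quasi-likelihood test.

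**Figure D2:**
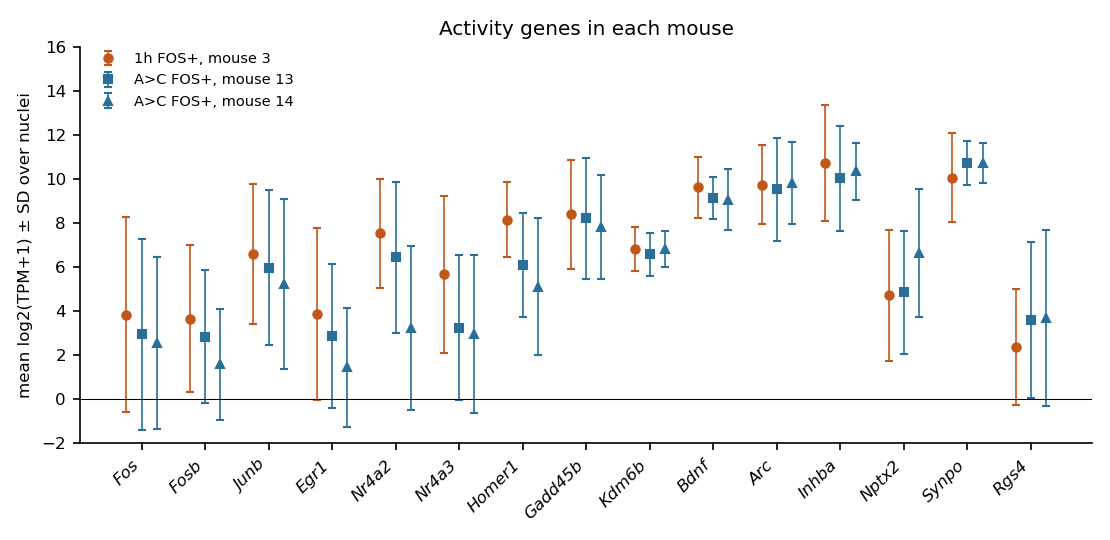
Mean log2(TPM+1) of activity genes in each of the 3 mice, with bars giving the SD over the 24, 24 and 26 nuclei. Fos, Fosb, Egr1, Nr4a2, Nr4a3 and Homer1 have their highest mean in the 1h FOS+ mouse, while Arc, Inhba, Bdnf and Synpo lie close together in all 3 mice.

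As a list, 30 transcription factors of the early response were tested. Both A>C mice lay below the 1h FOS+ mouse in CPM for 17 of them and above it for 3, with a median log2 fold change of −0.64, beside 30.6% below, 22.3% above and a median of 0.00 over all genes tested. Among 20 genes of CREB and cAMP signalling, 9 were lower in both mice and 2 higher (median −0.46). Creb1 itself had 580, 801 and 3569 counts (log2 fold change −1.52 ± 1.82, SE), and its coactivator Crtc3 had 719, 993 and 463.

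The broader early list leaned the same way. The study had drawn it from genes raised in these very first-exposure FOS+ nuclei and not later, so a lower level in any other group is not independent evidence. Of its 252 genes, both A>C mice lay below the 1h FOS+ mouse in CPM for 164 and above it for 33, with a median log2 fold change of −0.50. In mean log2(TPM+1) both were below for 151 and above for 40, beside 39.6% and 30.9% of all genes at a level of 1 or more. No member reached an unadjusted p under 0.05. Members with the smallest p were Mbd2, a methyl-CpG binding protein (221, 130 and 2399 counts), Pgam1 (3654, 4120 and 18615), Arf4 (2299, 3505 and 17189) and Mast4 (10296, 9993 and 35003). These sums are not scaled, and the larger library of the 1h FOS+ mouse makes the drop look larger than it is per library total.

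At the level of single nuclei the early list shifted rather than switched off. Averaged over its genes, the level of log2(TPM+1) was 4.54 in the 1h FOS+ mouse (nuclei from 3.91 to 5.66), 4.15 in A>C mouse 13 (3.42 to 5.52) and 3.77 in A>C mouse 14 (2.95 to 4.60). Below the lowest nucleus of the 1h FOS+ mouse lay 7 of 24 nuclei of mouse 13 and 17 of 24 of mouse 14, and below its median lay 20 and 22. The groups of nuclei thus overlapped, more so for mouse 13 than for mouse 14. The A>A FOS+ mice had 2.84 to 3.83, the HC FOS− mice 2.21 and 2.28 and the A>C FOS− mice 2.52 and 2.53, so both A>C FOS+ mice stood below the first-exposure mouse and above the HC FOS− and A>C FOS− mice. Mouse 13 lay above all 6 A>A FOS+ mice and mouse 14 within their range.

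**Figure D3:**
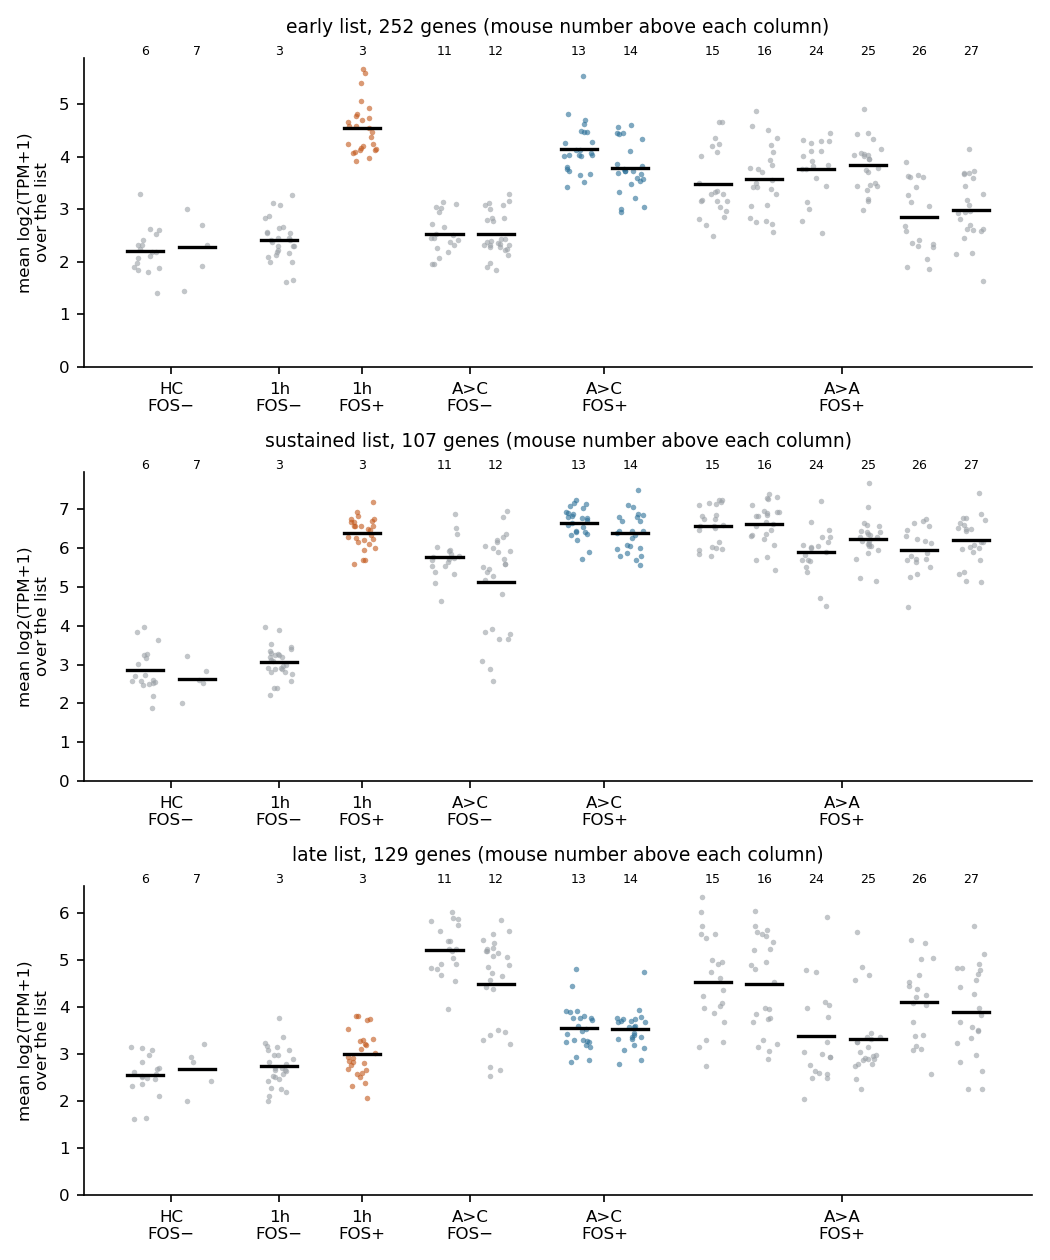
Mean log2(TPM+1) over the genes of the early, sustained and late lists, with points for single nuclei and bars for the mean of each mouse, by group. The early list is highest in the 1h FOS+ mouse (4.54, against 4.15 and 3.77 in the A>C FOS+ mice), the sustained list is alike (6.40, against 6.66 and 6.40) and the late list is lowest in the 1h FOS+ mouse among FOS+ mice (3.00, against 3.55 and 3.52).

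The effector list holds synaptic genes such as Arc and Synpo, among others. Of 28 tested, 16 were lower and 9 higher in CPM in both A>C mice (median −0.19), beside 30.6% below and 22.3% above over all genes tested. In mean log2(TPM+1), 12 were lower and 9 higher of 26 at a level of 1 or more (46.2% and 34.6%). Among all genes at such a level the shares were 39.6% and 30.9%, so in that measure the effector list was closer to the background. Arc, whose protein assembles into capsids and regulates AMPA receptor endocytosis, had mean levels of 9.53, 9.81 and 9.75 and CPM of 2534, 2566 and 2534, with a log2 fold change of 0.01 ± 0.60 (SE) and a 95% interval from −1.23 to 1.25. The A>C nuclei had been gated on ARC protein and the 1h FOS+ nuclei had not. Inhba, the activin beta A subunit and a ligand of the receptor family to which Acvr1c belongs, was at 10.04, 10.35 and 10.75 (log2 fold change −0.67 ± 0.87, SE). Bdnf, a neurotrophin, was at 9.14, 9.06 and 9.62 (−0.68 ± 0.53, SE), and Synpo, an actin-associated protein of the spine apparatus, at 10.72, 10.74 and 10.06.

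Nptx2 and Rgs4 had their highest levels in A>C mice. Nptx2, a secreted pentraxin that clusters AMPA receptors, was at 4.85, 6.62 and 4.71 (0.60 ± 1.04, SE), so mouse 14 was high and mouse 13 was close to the 1h FOS+ mouse. Rgs4, an inhibitor of Gq and Gi signalling that is also in the late list, had 4945, 5008 and 1853 counts and a mean level of 3.59, 3.68 and 2.38 (log2 fold change 2.27 ± 0.88, SE, adjusted p = 1 by edgeR's quasi-likelihood test). Rgs4 exceeded 1 in 14 of 24, 14 of 24 and 16 of 26 nuclei.

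Feedback regulators and chromatin genes lay on both sides. Over all genes tested, both A>C mice lay below the 1h FOS+ mouse in CPM for 30.6% and above it for 22.3%. In mean log2(TPM+1) the shares were 39.6% and 30.9% of all genes at a level of 1 or more. Among 12 MAP kinase feedback genes 4 were lower and 2 higher in both A>C mice (median 0.01), with Spry2, an inhibitor of receptor tyrosine kinase signalling, at 8.34, 8.89 and 8.59. Among 20 chromatin genes 8 were lower and 7 higher in CPM (median −0.01), but in mean log2(TPM+1) 4 were lower and 9 higher of 17 at a level of 1 or more (median 0.41), so the balance depends on the measure. The list holds the histone demethylase Kdm6b at 6.58, 6.82 and 6.82 and the DNA dioxygenase Tet3 at 9.11, 9.52 and 9.53. Smarca4, the ATPase of the BAF complex, had 4670 and 7671 counts against 3496 (1.67 ± 0.82, SE), and Dnmt1 0 and 0 against 575, the latter from 2 nuclei above the level of 1.

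The sustained list, which the study drew from genes high soon after an exposure and still high hours later, lay on both sides. Of 107 genes, both A>C mice were lower for 39 and higher for 40 in CPM, beside 30.6% below and 22.3% above over all genes tested, the median log2 fold change was 0.04, and the mean level was 6.66, 6.40 and 6.40. Asb11 (3240, 2637 and 1746 counts) and Elmo1, an activator of Rac (5149, 13023 and 3763), were among those with the smallest p in the higher direction, and Pip5k1a, a lipid kinase, had 1395, 1471 and 9293 counts. None of the 107 reached an unadjusted p under 0.05.

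The late list, which the study drew from genes high hours after an exposure and not before, leaned the other way from the early list. Of 129 genes, both A>C mice were higher for 69 and lower for 27, with a median log2 fold change of 0.43, beside 30.6% below and 22.3% above over all genes tested. At an unadjusted p under 0.05, 9 members were higher and 0 lower, where 0.704% and 1.08% of all genes were. In mean log2(TPM+1) both were higher for 72 and lower for 15 of the 121 members at a level of 1 or more, beside 30.9% and 39.6% of all genes at such a level. As for the early list, membership meant that the gene had not been called in the 1h FOS+ nuclei, so the direction is not independent evidence. Of the 24 nuclei of each A>C mouse, 22 lay above the median nucleus of the 1h FOS+ mouse (2.92). Above its highest nucleus lay 6 of 24 nuclei of mouse 13 and 2 of 24 of mouse 14, so the groups of nuclei overlapped. The mean level was 3.55 and 3.52 in the A>C FOS+ mice and 3.00 in the 1h FOS+ mouse. The A>A FOS+ mice had 3.32 to 4.53, the A>C FOS− mice 5.22 and 4.50, the 4 h ARC+FOS− mice 5.23 and 4.50, and the HC FOS− mice 2.55 and 2.69. On this list the A>C FOS+ nuclei therefore lay nearer to the 1h FOS+ nuclei than to nuclei taken 4 h after an exposure.

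Late genes differed among themselves. Sorcs3, a sorting receptor of the VPS10 family, had 294 and 619 counts in the A>C mice and 0 in the 1h FOS+ mouse, at least 275-fold more in CPM than a floor of 3 counts in that library. It exceeded a log2(TPM+1) of 1 in 2 and 4 of the 24 nuclei, and its adjusted p was 0.92 by edgeR's quasi-likelihood test. Its level was 4.75 and 6.56 in the A>C FOS− mice (lower value first), 0.66 to 4.60 in the A>A FOS+ mice and at most 0.50 in the HC FOS− mice and the 1h FOS− nuclei. Dlg2, the synaptic scaffold PSD-93, was at 7.80, 6.48 and 6.18 and Gabra4, a GABA-A receptor subunit of granule cells, at 7.36, 6.58 and 6.06. Acan, the perineuronal net core protein aggrecan, was at 2.78, 3.00 and 2.05 although its summed counts gave a log2 fold change of 0.09 ± 1.22 (SE), and Blnk was at 1.53, 2.03 and 1.80 (−0.79 ± 1.12, SE). Outside the late list, the kinase Tnik was at 8.83, 8.35 and 8.24, Entpd4 at 3.41, 3.68 and 3.35 and Hes7 at 3.15, 3.91 and 3.45.

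**Figure D4:**
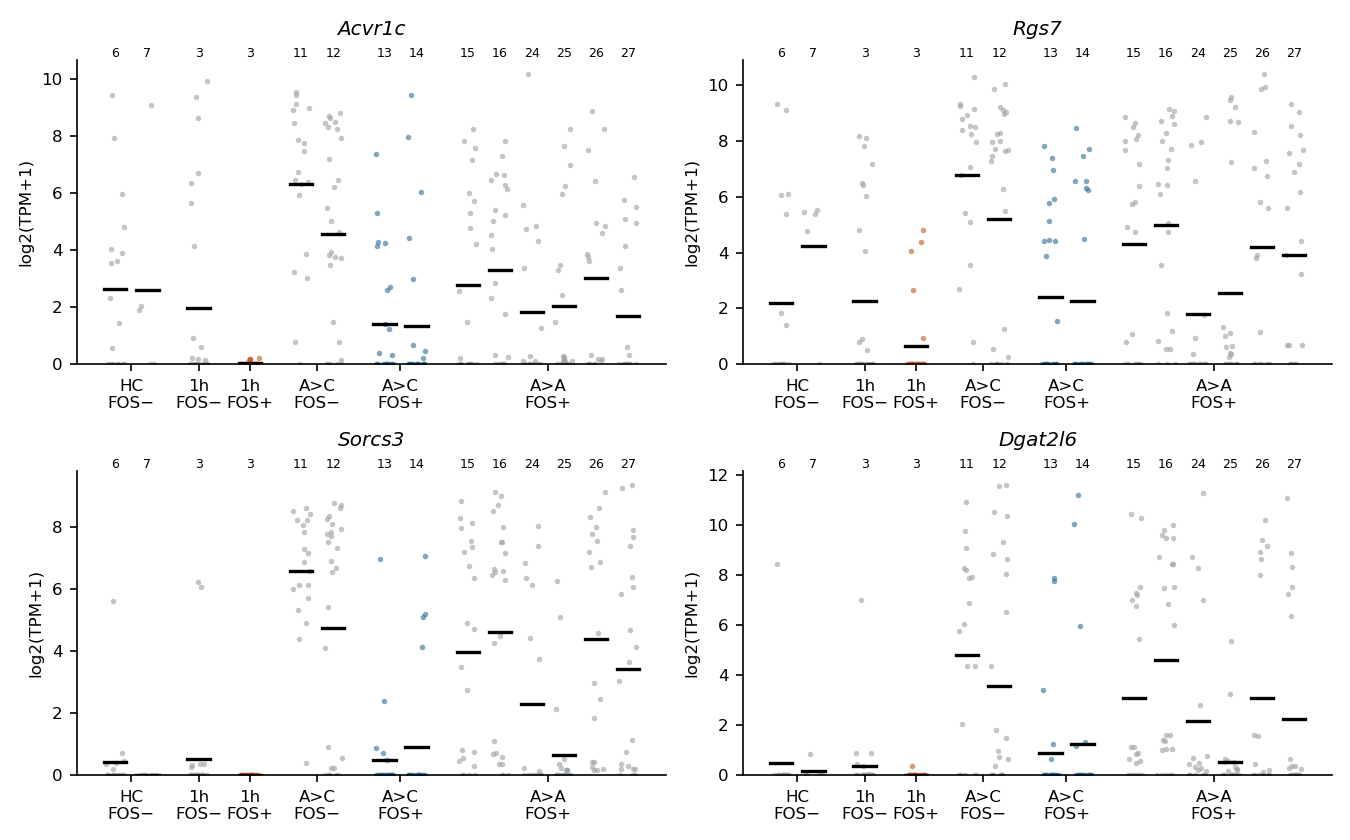
Log2(TPM+1) of Acvr1c, Rgs7, Sorcs3 and Dgat2l6, with points for single nuclei and bars for the mean of each mouse, by group. Acvr1c is above 1 in 9 of 24, 5 of 24 and 0 of 26 nuclei of A>C mouse 13, A>C mouse 14 and the 1h FOS+ mouse.

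Receptor genes also lay on both sides. Over all genes tested, both A>C mice lay below the 1h FOS+ mouse in CPM for 30.6% and above it for 22.3%. Of 21 glutamate receptor genes 6 were lower and 7 higher in both A>C mice (median 0.00), with Gria2, the AMPA receptor subunit that sets calcium permeability, at 10.05, 9.79 and 9.61 and Grin2b, an NMDA receptor subunit, at 10.26, 10.15 and 10.35. For Grin2b the log2 fold change was −0.06 ± 0.39 (SE), which is among the better measured values. Grm8 had 1030 and 256 counts against 0. Of 14 GABA-A receptor genes 6 were lower and 3 higher (median 0.04), with Gabra2 at 7.85, 6.80 and 7.04 (−0.21 ± 0.57, SE).

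Of 17 heat shock genes 10 were lower in both A>C mice and 0 higher in CPM (median −0.33), beside 30.6% below and 22.3% above over all genes tested, and none passed the test. Hsp90aa1 was at 10.72, 9.17 and 10.92, Hspa8 at 10.04, 9.30 and 10.46, and Hspa5, the chaperone of the endoplasmic reticulum, at 8.66, 8.49 and 9.46. In the same measure the A>A FOS+ mice spanned 7.46 to 10.89 for Hsp90aa1, a range that holds both A>C mice, and the 1h FOS+ mouse lay just above it.

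Groups of genes that report on RNA and on other cells were as follows. For comparison, both A>C mice lay below the 1h FOS+ mouse in CPM for 30.6% of all genes tested and above it for 22.3%. In mean log2(TPM+1) the shares were 39.6% and 30.9% of all genes at a level of 1 or more. Of 12 DG markers 7 were lower and 2 higher in both A>C mice in CPM (median −0.24), and in mean log2(TPM+1) 2 were lower and 3 higher of 10 at a level of 1 or more (median −0.06). Of 81 ribosomal protein genes 32 were lower and 22 higher (median 0.00). Of 8 nuclear-retained RNAs 3 were lower and 4 higher (median 0.23), with Malat1 at 17.74, 17.77 and 17.39. Of 8 astrocyte markers 5 were higher and 1 lower (median 3.30). Slc1a2, a glial glutamate transporter, had 516, 2635 and 96 counts, and Aqp4, the astrocyte water channel, 158, 453 and 0. The lists of 10 pyramidal, 10 interneuron, 8 oligodendrocyte, 7 microglial and 4 endothelial markers had 5, 3, 3, 1 and 0 genes lower and 2, 2, 2, 1 and 1 genes higher. The astrocyte markers were higher in the group where the late genes were higher, and their part in that difference was not tested.

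The second question was how the different-context nuclei compare with nuclei at rest. Against HC FOS−, 54 genes were called in A>C FOS+ by edgeR's quasi-likelihood test (0.222%), and all 54 were higher. Of these, 38 are in the sustained list, 4 in the early list, 2 in the late list and 10 in none of the 3. The sustained list was itself drawn by the study from contrasts with these home-cage nuclei, so its share is not independent evidence. The home-cage nuclei belong to the first set of libraries, as the 1h FOS+ nuclei do, so this contrast also crosses sets. Leaving out HC mouse 7 left 11 calls and leaving out HC mouse 6 left 96, and without A>C mouse 13 or 14 there were 30 and 32.

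Of the 54, 12 are in the effector list, and most of those are in the sustained list as well. Arc rose by a log2 fold change of 12.61 ± 0.80 (SE, adjusted p = 4.8e-09 by edgeR's quasi-likelihood test), Inhba by 8.31 ± 1.00 and Synpo by 5.39 ± 0.52. For Arc both arms had been chosen on the gene, since A>C nuclei were gated on ARC protein and HC FOS− nuclei with an Arc level above 2.5 were left out, so its test is no independent finding. Acan rose by 9.14 ± 1.44, Nptx2 by 6.22 ± 1.04, Nrn1, a GPI-anchored neuritin, by 2.71 ± 0.50 and Bdnf by 2.26 ± 0.46. Among regulators, Kdm6b rose by 5.12 ± 0.99, Tet3 by 4.95 ± 0.90, Spry2 by 3.65 ± 0.77 and the splicing factor Srsf5 by 2.53 ± 0.48. Lmo7 (1.98 ± 0.33), the long non-coding RNA Meg3 (1.90 ± 0.27) and Syne1 (1.70 ± 0.36) were also called.

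Of the 30 early transcription factors 1 was called, Atf3, which was singled out after its value was seen. Of the 28 effectors 12 were called, beside 0.222% of all genes, and the difference between the lists was not tested. Most of the called effectors are also in the sustained list, which the study drew from contrasts with these home-cage nuclei. The share of effectors called is therefore not independent evidence. Fos had a log2 fold change of 10.23 ± 3.94, Nr4a3 of 4.39 ± 2.04 and Homer1 of 5.27 ± 1.43, with adjusted p of 0.68, 0.68 and 0.25 by edgeR's quasi-likelihood test. Their standard errors were larger than those of Synpo and Bdnf.

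The same reference nuclei serve the first exposure, so the 2 contrasts share controls and their values are set side by side only. Against HC FOS−, 1h FOS+ had 41 genes higher (0.169%) and 2 lower (0.00823%), together 0.177% of those tested. Arc was at 12.61 in A>C FOS+ and 12.60 in 1h FOS+, Inhba at 8.31 and 8.98, Synpo at 5.39 and 5.21, Bdnf at 2.26 and 2.94, and Tet3 at 4.95 and 5.03 (log2 fold changes). For the 54 genes called in A>C FOS+, the direct log2 fold change of A>C FOS+ over 1h FOS+ had a median of −0.01. These genes were chosen for being high in A>C FOS+, which bears on that value, and it is given as a description. Both A>C mice lay below the 1h FOS+ mouse in CPM for 19 of the 54 and above it for 21, beside 30.6% below and 22.3% above over all genes tested.

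The third question was whether the contrast of FOS+ with FOS− nuclei of the same exposure differed between the 2 exposures. Both 1h groups came from mouse 3 alone and entered the fit as separate sums, so the spread for the 1h contrast was taken from the other DG groups. Within A>C, edgeR's quasi-likelihood test called 0 genes between ARC+FOS+ and ARC+FOS− nuclei, with 882 at an unadjusted p under 0.05 (3.63%). Within 1h it called 5 (0.0206%). The difference of the 2 contrasts was called for 1 gene (0.00412%), Arc, at −8.85 ± 1.03 (SE, adjusted p = 0.00044 by edgeR's quasi-likelihood test), with 385 genes at an unadjusted p under 0.05 (1.58%).

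For Arc that value follows the level of the FOS− nuclei and not of the FOS+ nuclei. Its mean log2(TPM+1) was 9.53 and 9.81 in A>C FOS+ and 9.75 in 1h FOS+, but 5.14 and 7.52 in A>C FOS− and 0.99 in 1h FOS−. For A>C FOS− in this paragraph the lower value is given first, whatever the mouse number. The A>C FOS− nuclei had been gated as ARC+, whereas FOS− nuclei of the first set with an Arc level above 2.5 were left out, so the reference of each contrast was chosen on the gene or its protein. Inhba had the same arrangement of levels, at 6.25 and 8.52 in A>C FOS− and 1.72 in 1h FOS−, as did Bdnf, at 7.14 and 8.94 against 3.55, and Synpo, at 9.42 and 10.01 against 5.30. Fos did not, at 0.57 and 0.94 in A>C FOS− and 0.33 in 1h FOS−.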

How the data were processed

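Single-nucleus SmartSeq2 libraries of DG nuclei were analysed as deposited. The authors trimmed reads with Solexa-QA++ and quantified them with RSEM and Bowtie on mm10 with an Ensembl annotation, whose release is not given in the sources used here. The deposited expected counts from RSEM, all whole numbers, needed no rounding. The deposited log2 values are log2(TPM+1), computed by the authors.

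A nucleus entered with 100000 or more aligned reads and with a log2(TPM+1) over 1 in no fewer than 4000 genes. An animal was an exposure, date and mouse number. Counts of at least 2 nuclei were summed per animal and group, and 28 sums of 9 DG groups entered one fit (edgeR 4.0.16, R 4.3.3, TMM, filterByExpr, glmQLFit and glmQLFTest, 19 residual degrees of freedom, common dispersion 2.15). Alternatives used DESeq2 1.42.0 and limma 3.58.1. The scripts were tested on simulated data. Intervals over nuclei are exact binomial ones and, since reads include PCR copies, cover counting error only. Total counts of the 3 mice's sums were 19135077, 18663281 and 35182353. Gene positions are from GENCODE vM21 on GRCm38. The 277 columns of other cell types in the first count table were not used, nor were 30 genes without a value in the counts and 23 in the log2 tables.

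The nuclei and gene lists were chosen with earlier results of these data known. Genes were named by rule: called genes with the largest change, filled to 10 per direction by the smallest unadjusted p among genes at a level of 1 or more, all genes in lists of genes the study names, up to 6 per further list (4 by p and 2 by level), and genes called in the difference of differences. SmartSeq2 keeps no strand, so overlapping genes on opposite strands cannot be told apart. The p-values rest on the spread between mice in the DG groups with more than 1 mouse, since each 1h group held mouse 3 alone. The results of 2 genes that this rule names are not reported here.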

Additional observations from a re-analysis of the deposited data

Results flagged for a closer look

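In Arc, the difference between FOS+ and FOS− nuclei was smaller after A>C than after the first exposure, by −8.85 on the log2 scale in a test of the difference itself (edgeR's quasi-likelihood test, adjusted p = 0.00044). The 2 A>C FOS+ mice and the 1h FOS+ mouse had like levels, and the A>C FOS− nuclei, which had been gated as ARC+, had the higher level of the FOS− groups.

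Among the 6 A>A FOS+ mice, mouse 15 stood apart in the mean level of the 10 pyramidal cell markers, at 0.505 on the log2(TPM+1) scale, where the median mouse was at 0.383. It was 1 of 23 lists checked for a stray mouse in that group, and chance sets about 1 in 20 such groups apart.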

How the results depend on the processing

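The number of calls depended strongly on the tool. For A>C FOS+ against 1h FOS+, thinning nuclei to 100000 counts, merging animals over dates or leaving low counts unfiltered kept the number of the main analysis. Taking only sums of at least 5 nuclei kept it too. A>C FOS+ against 1h FOS+ gave 1 call in the main analysis, 806 with DESeq2 (563 higher, 243 lower), 0 with DESeq2 size factors in edgeR, 0 with limma on log2(TPM+1), 29 with limma on log2(TPM+5), 0 with only the groups compared in the fit, 0 with 5000 genes per nucleus, and 0 to 1 without A>C mouse 14 or 13. The 806 DESeq2 calls were 4.39% of the 18344 genes with an adjusted p by that tool, and 685 of them had no count in at least 1 of the 3 mice. In the lists, 0 of 252 early, 0 of 107 sustained and 7 of 129 late genes were called, and the late share is near that of all genes in both directions together. All 7 late genes were higher in A>C FOS+, as were 563 of the 806. Against HC FOS−, 54 calls became 1688 with DESeq2 (822 higher, 866 lower), 32 with its size factors, 1312 with limma on log2(TPM+1) (315 higher, 997 lower, the median of all genes shifting by −0.28), 1269 with limma on log2(TPM+5), 3 with only the groups compared, 85 with nuclei thinned to 100000 counts, 83 with animals merged over dates, and 11 to 96 with 1 mouse left out. The difference of differences gave 1 call, 536 with DESeq2, 0 with limma on log2(TPM+1), 30 on log2(TPM+5), 0 with only the groups compared and 2 after thinning. The cause was not tested.

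Mice give FOS+ and FOS− nuclei only in part, so pairing by mouse was tried as a replicate block in limma (correlation within a mouse 0.20), which gave 0, 1298 and 2 calls in these 3 comparisons. A fixed block could not be fitted to A>C FOS+ against 1h FOS+, where each mouse is in 1 group, and the single 1h FOS+ mouse could not be left out.

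Over 13 alternatives the median log2 fold change of the early list ran from −0.64 to −0.41, of the sustained list from −0.09 to 0.10 and of the late list from 0.29 to 0.55. For the 139 named genes, 1670 of 1742 alternative values kept their direction. Most genes had a standard error of 1 or more (6919 of 8431), which limits what this comparison can show.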
